A study of Solanum lycopersicum with 2 samples.

Results

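Hsp101, ClpB and the chloroplast Clp ATPases of tomato (Solanum lycopersicum) were followed in leaves of the cultivar Moneymaker through 5 gene models, chosen by identifier from a fixed list. The list held a ClpB1/Hsp101 model (Solyc03g115230.2), a chloroplast ClpB model (Solyc02g088610.2), 2 ClpC models (Solyc12g042060.1 and Solyc03g118340.2) and a ClpD model (Solyc03g117950.2). All 5 were listed in both libraries, among 24915 gene models listed in at least 1. The names come from that list, because the deposited files give identifiers only and 0 of the 5 identifiers matched the reference gene table, so the names could not be checked against a sequence or an annotation.

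The control group was 1 library from young leaves of 8-week-old glasshouse plants, kept at 24°C by day and 20°C by night with 16 h of light. The heat-stress group was 1 library from plants of the same cultivar, age and glasshouse that were moved to a growth chamber with 120 μmol m-2 s-1 of light, held at 39°C for 1 h and given 1.5 h at 24°C before sampling. Heat and recovery were therefore measured together, and the labels do not say whether control plants were moved to the chamber or how many plants went into a library. The assay was massive analysis of cDNA ends (MACE). It captures RNA by its poly-A tail and reads only the 3' end, so that 1 transcript gives 1 read. The control library had 11534512 mapped reads and the heat-stress library 13857252. Levels are given in RPM, the reads of a model per 1000000 mapped reads, which need no correction for transcript length. With 1 library per group there was no test between conditions. All intervals are exact 95% intervals of counting error and leave out the spread between plants and between library preparations.

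Clp ATPases of the Hsp100 class are ring-shaped AAA+ machines that use ATP to thread proteins through a central pore. The ClpB branch, which includes cytosolic Hsp101 and a chloroplast form, pulls proteins out of aggregates together with Hsp70 chaperones, and Hsp101 is required for acquired heat tolerance in Arabidopsis and maize. The ClpC and ClpD proteins of the chloroplast stroma instead pass proteins to the Clp protease for degradation, and ClpC also takes part in protein import. In bulk leaf RNA, fewer cells with a transcript and less of it per cell cannot be told apart.

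The 2 ClpB-type models were several-fold higher after heat stress, while the 3 ClpC and ClpD models differed little between the libraries. Chloroplast ClpB was 7.27 times its control level and Hsp101 3.60 times, and the ratios of the 3 others lay between 0.838 and 1.32. A filter on the mean over both libraries, set at 5 RPM or more, kept 11271 models. Of these, the share at least 2-fold higher after heat stress was 3.91%, and the share at least 2-fold lower was 1.66%. All 5 members passed this filter. Hsp101 and chloroplast ClpB, 2 of the 5, were past 2-fold on the higher side, 0 were past it on the lower side, and chloroplast ClpB was also past 4-fold on the higher side, as were 0.772% of the models. The median log2 ratio, computed as log2 of (heat-stress RPM + 1) over (control RPM + 1), was 0.39 for the members and 0.10 for all 11271 models, whose quartiles were -0.17 and 0.37. The member median is the value of a single model, the ClpC of chromosome 3, and the members ran from -0.25 to 2.83.

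**Figure D1:**
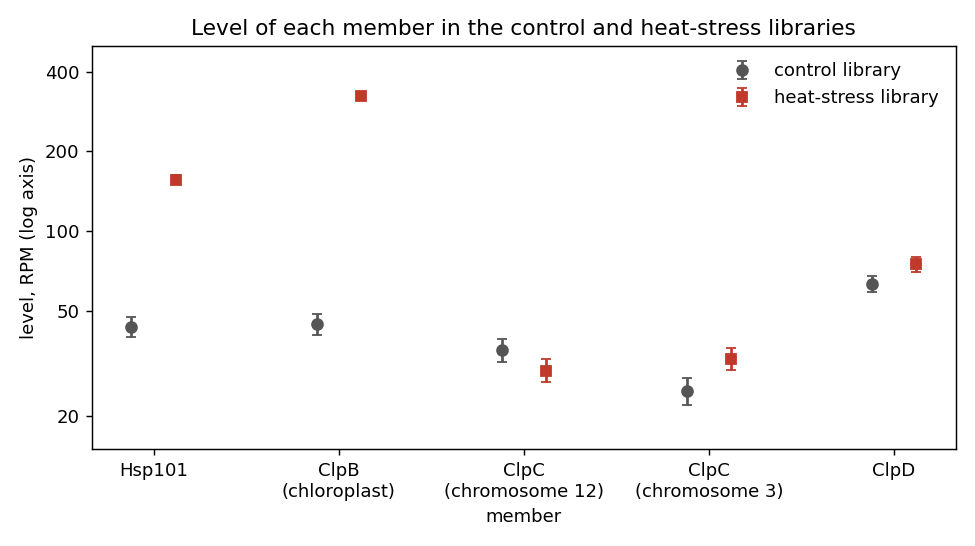
Level of each of the 5 members in RPM on a log axis, with circles for the control library and squares for the heat-stress library, and bars for the exact 95% Poisson interval of the reads. Hsp101 and chloroplast ClpB lie at 43.4 and 44.4 RPM in control leaves and at 156 and 323 RPM after heat stress, while the other 3 members stay between 24.8 and 74.8 RPM in both.

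Hsp101, the disaggregase of the cytosol and nucleus, had 501 reads in control leaves and 2168.5 after heat stress. Its level was 43.4 RPM in control leaves (39.7 to 47.4) and 156 RPM after heat stress (149.9 to 163). The intervals were far apart, with a ratio of 3.60 (3.27 to 3.98) and a log2 ratio of 1.83. Hsp101 ranked 2842 of 22893 listed models by level in control leaves and 720 of 23748 after heat stress. Of the models past the filter, 103 (0.914%) had a higher log2 ratio.

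Chloroplast ClpB, the disaggregase of the stroma, is needed for normal chloroplast development in Arabidopsis. It had 512 reads in control leaves and 4470 after heat stress. Its level was 44.4 RPM in control leaves (40.6 to 48.4), where its interval overlapped that of Hsp101, and 323 RPM after heat stress (313 to 332). The ratio was 7.27 (6.63 to 7.98), the log2 ratio was 2.83, and 34 models (0.302%) had a higher one. It moved from rank 2783 in control leaves to rank 282 after heat stress.

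The chloroplast model therefore had the larger ratio of the ClpB pair. Its ratio was 2.02 times that of Hsp101 (1.76 to 2.31), a difference beyond counting error. In the control library the level of chloroplast ClpB was 1.02 times that of Hsp101 (0.902 to 1.16), and after heat stress it was 2.06 times (1.96 to 2.17). Together the pair had 87.8 RPM in control leaves and 479 RPM after heat stress, a ratio of 5.45 (5.10 to 5.83).

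**Figure D2:**
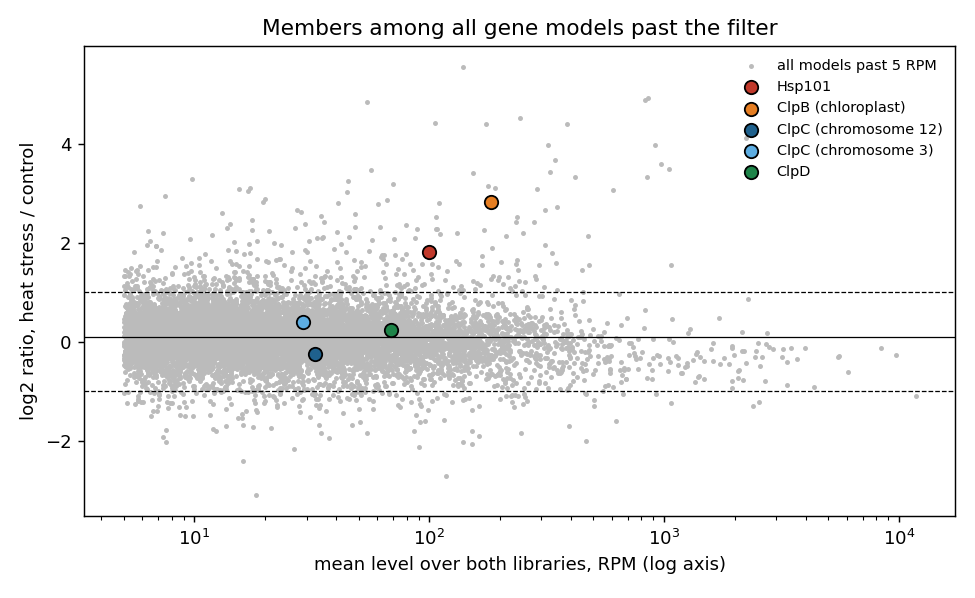
Log2 ratio of heat stress over control against the mean level in RPM (log axis) for the 11271 gene models past the filter in grey and the 5 members in colour. The solid line is the median of all models at 0.10 and the dashed lines mark 2-fold. Chloroplast ClpB at 2.83 and Hsp101 at 1.83 lie above the upper dashed line, and the ClpC and ClpD members lie inside both.

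The members were of middle to high abundance, with means from 28.9 RPM to 183 RPM over both libraries. In that range lay 3763 models, members included, of which 152 (4.04%) were past 2-fold on the higher side and 71 (1.89%) on the lower side, with a median log2 ratio of 0.08. The share of 2-fold models in that range was thus close to the share over all models. The top of the range is the mean of chloroplast ClpB, which includes its level after heat stress.

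The 2 ClpC models, both for the stromal ATPase that feeds the Clp protease, stood on opposite sides of 1 by their reads, which for the chromosome 12 model did not hold once its peak height was subtracted (log2 ratio of 0.0284). The ClpC model of chromosome 12 (Solyc12g042060.1) had 408.5 reads in control leaves and 411.5 in the deeper heat-stress library. The model was at 35.4 RPM in control leaves (32.0 to 39.0) and 29.7 RPM after heat stress (26.9 to 32.7), a ratio of 0.838 (0.731 to 0.966) and a log2 ratio of -0.25. The control and heat-stress intervals overlapped slightly, and the interval of the ratio lay just below 1.

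The ClpC model of chromosome 3 (Solyc03g118340.2) had 286.5 reads in control leaves and 455.5 after heat stress. Its level was 24.8 RPM in control leaves (22.0 to 27.8) and 32.9 RPM after heat stress (29.96 to 36.1). The intervals did not overlap, the ratio was 1.32 (1.14 to 1.54) and the log2 ratio was 0.39. Of all models past the filter, 23.2% had a higher log2 ratio.

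In the control library the chromosome 12 model was the more abundant ClpC by reads, at 1.43 times the level of the chromosome 3 model (1.22 to 1.67). By reads minus peak height, which has no counting interval, that order was reversed. The chromosome 12 model was then at 14.5 RPM and the chromosome 3 model at 20.4 RPM in control leaves. In the heat-stress library the chromosome 3 model was at 1.11 times the level of the chromosome 12 model (0.967 to 1.27), so their order there was not set beyond counting error. The ratio of the chromosome 3 model was 1.58 times that of the chromosome 12 model (1.28 to 1.94). Summed over both, ClpC was at 60.3 RPM in control leaves and 62.6 RPM after heat stress, a ratio of 1.04 whose interval held 1 (0.939 to 1.15). Both models had a fractional number of reads in each library, so some of their reads were divided with another location. The files do not give that location, and whether the models share reads with each other was not tested. Reads were fractional in at least 1 library for 3 of the 5 members, the third being Hsp101, and for 28.1% of the models past the filter.

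ClpD, a stromal ATPase known in Arabidopsis as ERD1 for its induction by dehydration and senescence, was the most abundant member of the control library. It had 728 reads there and 1036 after heat stress. Its level was 63.1 RPM in control leaves (58.6 to 67.9) and 74.8 RPM after heat stress (70.3 to 79.5). The intervals were apart by a small margin, with a ratio of 1.18 (1.08 to 1.30) and a log2 ratio of 0.24, and 36.2% of the models had a higher one. The ratios of ClpD and of the chromosome 3 ClpC could not be told apart, the second being 1.12 times the first (0.937 to 1.34).

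Counting intervals are narrow at these depths, and an interval apart from 1 was common. Over all models past the filter, 36.0% had a counting interval wholly above 1 and 20.8% wholly below 1. Of the members 4 were above and 1 below, which therefore sets none of the ClpC and ClpD models apart. Dividing the heat-stress values by 1.08, the median ratio of all models (0.11 on the log2 scale), took ClpD to a ratio of 1.10 with an interval that held 1 (0.997 to 1.21). The trimmed mean scaling left it at 1.10 with an interval just above 1 (1.003 to 1.22), and scaling to the reads of the listed models gave 1.21 (1.10 to 1.33). With the median ratio, the chromosome 12 ClpC was at 0.777 (0.677 to 0.895), the chromosome 3 ClpC at 1.23 (1.06 to 1.43), Hsp101 at 3.34 (3.03 to 3.68) and chloroplast ClpB at 6.73 (6.14 to 7.39). Under this scaling 338 models were 2-fold higher and 263 lower, in place of 441 and 187, so 56.2% of the calls were on the higher side, against 70.2%.

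Among all 10 pairs of members, 9 differed in their ratio beyond counting error, the exception being ClpD and the chromosome 3 ClpC. The share of such pairs among other models was not computed, so this count does not set the family apart. Differences from the chromosome 12 ClpC rest on a ratio that was 0.838 by reads and 1.02 by reads minus peak height. The widest gap was between chloroplast ClpB and the chromosome 12 ClpC, whose ratios stood 8.67-fold apart (7.31 to 10.2). Among the stromal members, the ratio of chloroplast ClpB was 6.13 times that of ClpD (5.37 to 7.01) and 5.49 times that of the chromosome 3 ClpC (4.58 to 6.54). Hsp101 stood 3.04-fold above ClpD (2.65 to 3.49), 2.72-fold above the chromosome 3 ClpC (2.26 to 3.25) and 4.30-fold above the chromosome 12 ClpC (3.61 to 5.09).

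The order of levels within the family was thus different in each library. By reads, ClpD came first in the control library, followed by chloroplast ClpB and Hsp101, which did not differ beyond counting error. The chromosome 12 ClpC and then the chromosome 3 ClpC came next in that library. ClpD was at 1.42 times the level of chloroplast ClpB there (1.27 to 1.60), and Hsp101 at 1.23 times the level of the chromosome 12 ClpC (1.08 to 1.40). In the heat-stress library chloroplast ClpB came first, then Hsp101, ClpD and the ClpC pair, whose members did not differ beyond counting error. Hsp101 was at 2.09 times the level of ClpD there (1.94 to 2.26), and ClpD at 2.27 times that of the chromosome 3 ClpC (2.03 to 2.54).

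Summed over the 5 members, the family had 211 RPM in control leaves and 616 RPM after heat stress, a ratio of 2.92 (2.79 to 3.05). The gain was 405 RPM, of which chloroplast ClpB supplied 68.7%, Hsp101 27.9%, ClpD 2.87% and the chromosome 3 ClpC 1.98%, while the chromosome 12 ClpC stood at -1.41%. Without Hsp101, the 4 chloroplast members had 168 RPM in control leaves and 460 RPM after heat stress, a ratio of 2.74 (2.61 to 2.89).

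Chloroplast ClpB accounted for 21.0% of the family's reads in control leaves (19.4 to 22.7) and 52.3% after heat stress (51.3 to 53.4). Hsp101 had 20.6% (19.0 to 22.2) and 25.4% (24.5 to 26.3). ClpD went the other way, from 29.9% (28.1 to 31.7) to 12.1% (11.4 to 12.8), although its own level was not lower. The ClpC share went from 16.8% to 4.82% for the chromosome 12 model and from 11.8% to 5.33% for the chromosome 3 model. Dividing up the peak heights in place of the reads gave 33.1% and 9.57% for the chromosome 12 ClpC, 7.02% and 3.67% for the chromosome 3 ClpC and 25.6% and 11.9% for ClpD, so by that measure the chromosome 12 ClpC and not ClpD was first in control leaves. Chloroplast ClpB was first after heat stress by both measures. The ClpB pair supplied 96.6% of the summed gain, so the smaller shares of ClpC and ClpD stand beside levels of their own that differed little.

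**Figure D3:**
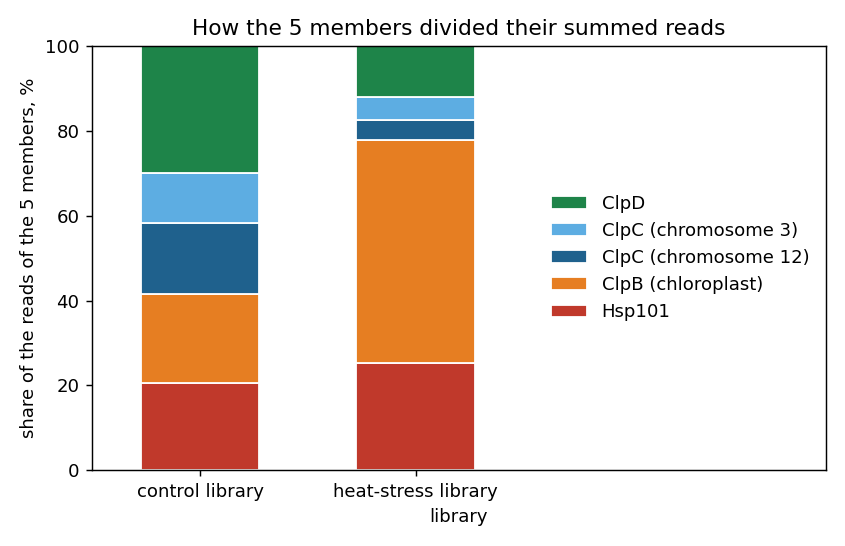
Share of the summed reads of the 5 members taken by each, in percent, in the control and heat-stress libraries. Chloroplast ClpB covers 21.0% of the control bar and 52.3% of the heat-stress bar, while ClpD covers 29.9% and 12.1%.

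Each file also has a height, in reads, for the highest peak of a model, without saying how a peak was defined or where it lies. The height exceeded the reads of its model in 1.42% of the models listed for control leaves and 1.47% of those listed after heat stress. A peak is therefore not always made up of the reads counted for its model, and its position may differ between the libraries. Heights are given below relative to the reads of the model, not as a part of them. The relative height was 27.5% in control leaves and 29.1% after heat stress for Hsp101, 21.7% and 21.9% for chloroplast ClpB, 25.5% and 24.7% for ClpD, and 17.8% and 17.3% for the chromosome 3 ClpC. For each of these members the values of the libraries lay within 2 percentage points. Among 8945 models whose peak did not exceed their reads and which had at least 100 reads in each library, the median was 25.4% in control leaves and 24.7% after heat stress.

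The chromosome 12 ClpC had a higher peak for its reads than most models. The height was 241 beside 408.5 reads in control leaves, or 59.0%, and 206 beside 411.5 reads after heat stress, or 50.1%. A control value at least as high was found in 2.14% of the 8945 models, and a change at least as far down as its -8.94 percentage points in 1.70% of them. These cutoffs were the member's own values, and models that also began with a high relative height were not compared separately. The change has no counting interval, so how unusual it is for such a model was not tested. Taken as a count of reads, the peak was at 20.9 RPM in control leaves and 14.9 RPM after heat stress, a ratio of 0.711 (0.588 to 0.861). Reads minus peak height came to 14.5 and 14.8 RPM, a ratio of 1.02. This difference is a number of reads outside the peak only if the peak holds none but the model's own reads, which the files do not show, so it has no counting interval. The other 4 members had ratios above 1 by both measures. Peak height and reads minus peak height gave 3.81 and 3.52 for Hsp101, 7.34 and 7.25 for chloroplast ClpB, 1.29 and 1.33 for the chromosome 3 ClpC, and 1.15 and 1.20 for ClpD. The peak intervals held 1 for the chromosome 3 ClpC (0.895 to 1.87) and for ClpD (0.945 to 1.39).

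**Figure D4:**
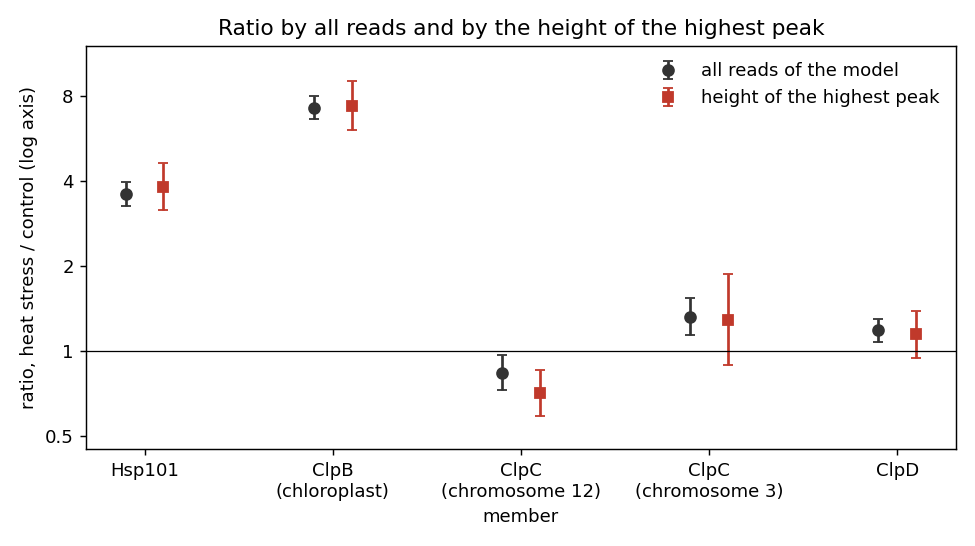
Ratio of heat stress over control on a log axis for each member, by all reads of the model and by the height of its highest peak taken as a count, with exact 95% counting intervals. The intervals of both measures overlap for each member, and the chromosome 12 ClpC is below 1 by both, at 0.838 and 0.711. Peak height and reads may not be independent. By reads minus peak height, which is not drawn, the chromosome 12 ClpC had a ratio of 1.02.

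Members lay on 3 chromosomes, with 3 of them on the same labelled strand of chromosome 3. ClpD and the chromosome 3 ClpC had 35 listed models between them in identifier order, and Hsp101 and ClpD had 234. Most of the neighbouring models past the filter were within 2-fold between the libraries. Of the 30 models within 3 places of a member in identifier order, 15 passed the filter, with a median log2 ratio of 0.09. Of these 15, 1 was past 2-fold on the higher side and 1 on the lower side, too few to compare with the 3.91% and 1.66% of all models past the filter. In both libraries together, 0 of the 30 had exactly the peak heights of the member beside it. Reads shared only in part would rarely give such a match, so sharing with a neighbour was not tested. The sources used here do not say whether reads were counted by strand.

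The models on either side of chloroplast ClpB had 0.940 and 0.938 times their control level. The model just before Hsp101, on the same strand, was at 63.5 RPM in control leaves and 22.6 RPM after heat stress, a log2 ratio of -1.45 beside the 1.83 of Hsp101. The model just after ClpD, also on its strand, was at 8.24 RPM in control leaves and 24.0 RPM after heat stress, a log2 ratio of 1.43 against 0.24 for ClpD. Its peak of 11 reads in control leaves and 76 after heat stress differed from those of ClpD, at 186 and 256.

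**Figure D5:**
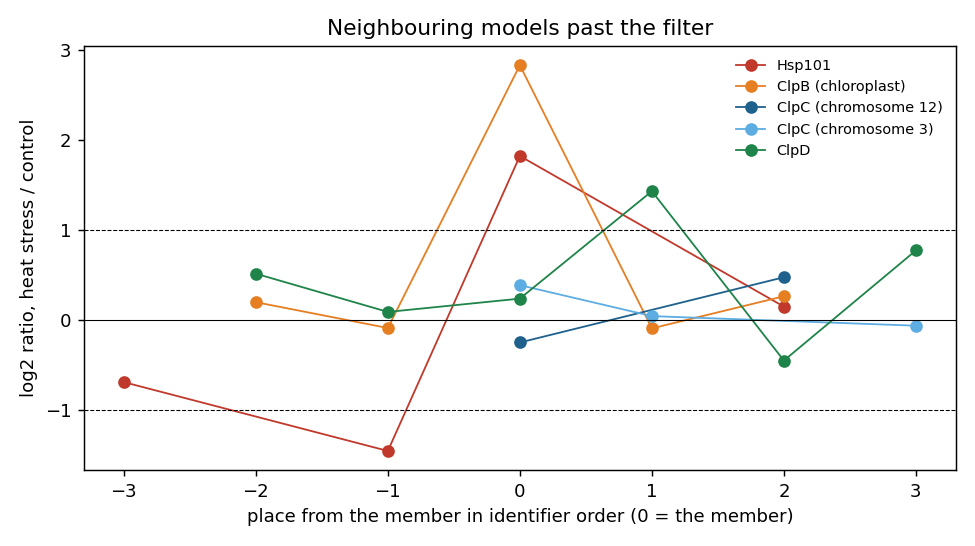
Log2 ratio of heat stress over control for each member (place 0) and for those of its 3 neighbours on either side in identifier order that passed the filter, with lines joining models around the same member and dashed lines at 2-fold. Hsp101 at 1.83 and chloroplast ClpB at 2.83 lie above their neighbours, and the neighbour just before Hsp101 lies at -1.45.

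The models most like each member were found by distance over log2(RPM + 1) in the 2 libraries, so likeness rests on 2 points per model. Few models resembled the ClpB pair, since 2 models lay within 0.25 of Hsp101 and 1 within 0.25 of chloroplast ClpB. The nearest to Hsp101 was Solyc05g056390.2, at 46.4 RPM in control leaves and 139.9 RPM after heat stress. The nearest to chloroplast ClpB was Solyc08g062450.1, at 38.8 RPM in control leaves and 344 RPM after heat stress. The 3 other members lay among many models of like level, with 313 within the same distance of the chromosome 12 ClpC, 402 of the chromosome 3 ClpC and 227 of ClpD. No member was among the 3 nearest models of another.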

How the data were processed

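Members, lists and measures were chosen with earlier results of these data known. FastQC is the only tool in the submitters' processing notes, and no aligner, genome build or annotation is named there (not given in the sources used here). Per the file headers, the authors deposited an estimated count of reads per gene model, with fractions for reads split over locations, the count of all mapped reads, and the highest peak, a signal in reads. The deposited column headed TPM equalled reads per 1000000 mapped reads (RPM) within 3.42e-08 RPM on every row, so it holds no length term.

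A model absent from 1 file was given 0 there. The filter was a mean of 5 RPM and the pseudocount 1 RPM. For intervals, reads were rounded to whole numbers. Levels have exact Poisson intervals. Ratios, shares and within-library comparisons have Clopper-Pearson intervals, and ratios between members have conditional exact odds ratio intervals. These used SciPy 1.17.1, with edgeR 4.0.16 for the trimmed mean scaling only. Only the log2 ratios and the intervals of ratios between libraries were tested on simulated libraries. Those libraries were drawn with the counting error that the intervals assume. In control leaves 1 read equals 0.0867 RPM, and after heat stress 0.0722 RPM. Named are the members and, by identifier, the models nearest to the ClpB pair; of the rule's 3 nearest models per member the others are given as counts. Lists of other chaperones, Clp protease subunits and leaf markers, and the sequence steps, were planned only for identifiers that the reference names. The 5 member identifiers matched 0 of 41476 reference genes, and the lists and sequence steps were not used. The leaf label was not checked against markers. Alternatives were other pseudocounts, filters, scalings and thresholds, the highest peak in place of all reads, and shares without Hsp101. Reads minus peak height and thinned heat-stress reads were added after seeing the data.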

Additional observations from a re-analysis of the deposited data

How the results depend on the processing

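Of 45 alternative values of the members' log2 ratios, 43 stayed within counting error of those reported. The exceptions were both in the chromosome 12 ClpC, at -0.465 by its highest peak and 0.0284 by its reads minus the peak height, against -0.25, and the cause was not tested. Both exceptions used the peak height. The pseudocounts, scalings and thinning could shift a ratio only slightly at these levels, so the count of 43 was largely fixed in advance. The 20 alternative differences between members used the highest peak or a pseudocount of 1 RPM. Of these, 18 stayed within counting error and 0 changed direction. The 2 that moved were by the highest peak, each against the chromosome 12 ClpC. A pseudocount of 1 RPM could shift differences only slightly at these levels, and reads minus peak height was not tried on them. Shares by highest peak or without Hsp101 moved in 16 of 18 values, the second by construction. Counts of 2-fold higher and lower models were 248 and 115 with a filter of 20 RPM, against 441 and 187. That filter kept 5865 models, so the shares were slightly larger, at 4.23% and 1.96% against 3.91% and 1.66%. The counts were 267 and 112 with a pseudocount of 5 RPM and 87 and 9 at 4-fold. Each of these settings lowers the counts by construction. With a pseudocount of 0.1 RPM, no filter or the median ratio the counts stayed within 1.5 times. No paired analysis was possible because there was 1 library per group, and none could be left out. Depth limits the ClpC pair most, with under 500 reads per library, and the spread between replicates is unknown.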
